A study of Homo sapiens with 4 samples.

Results

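The genes described here are 46 genes of the integrated stress response and the unfolded protein response, taken by symbol from a list of textbook members of these pathways. The list was drawn up with earlier results of these data known, so counts over it are no independent evidence. They are 46 of the 77973 genes in the gene table, and each symbol matched 1 gene identifier. For comparison by arm, 25 genes were placed in the amino-acid (ATF4) arm, 10 in the ATF6 arm and 5 in the XBP1 arm, and 6 are sensors of stress or phosphatase subunits that end the response. Targets of ATF6 and XBP1 overlap, so the border between those arms is approximate.

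Full-length complementary DNA was sequenced on the PacBio platform (Iso-Seq) from cortical neurons made from KOLF2.1J, a human cell line of induced pluripotent origin in wide use. In all groups the line carried doxycycline-inducible human NGN2, which drives neuronal differentiation, and a constitutive dCas9-BFP-KRAB construct, which silences genes to which a guide RNA directs it (CRISPR interference). All groups also received a lentiviral guide RNA and puromycin selection before differentiation, and the selected cells were kept as pools, not as single clones. For all groups the labels give 2 µg/mL puromycin, 2 µg/mL doxycycline and plating on day 8. The control group had a non-targeting guide and no drug, the knockdown group had a guide that silences TARDBP, which encodes the RNA-binding protein TDP-43, and no drug, the azacytidine group had the non-targeting guide and 5 µM 5-azacytidine for 72 hours, and the last group had both treatments. Azacytidine is a cytidine analogue that is built into RNA and DNA and inhibits DNA methylation. The labels give harvest on day 12 or day 15 without saying which applies to a library, and they state no vehicle for the groups without the drug.

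With 1 library a group, differences have no replicate check. The libraries held 466337 to 767621 reads assigned to genes, and between 58.5% and 68.1% of these reads were also assigned to a transcript. The targeted gene, TARDBP, had 104 reads in control neurons, 72 after knockdown, 73 after azacytidine and 43 after both. Its log2 ratio was -0.78 for knockdown against control (adjusted exact binomial p = 0.00681) and -0.73 for both treatments against azacytidine (adjusted exact binomial p = 0.0738), below the size of 1 that a call requires here. Where 4 values of a gene follow each other below, they stand in this order of libraries.

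The labelled cell type was checked against 12 neuronal markers, all of which had reads in every library. Their summed level was 2909 to 3819 CPM, the reads of a gene relative to the scaled size of its library. Single markers went in different directions, from RBFOX3, the one called higher with azacytidine (35, 39, 90 and 131 reads), to MAP2 (540, 761, 319 and 162 reads) and NEFL (343, 360, 250 and 114 reads). The summed markers of 4 other kinds of cell were lower with azacytidine, and those of glia were not. The summed level of 8 neural progenitor markers was 910 CPM in control neurons and 768 after knockdown, against 177 after azacytidine and 139 after both, and 4 of the 6 tested were called lower. For 8 proliferation markers the levels were 797 and 720 without the drug and 87.6 and 91.3 with it, and 6 of the 7 tested were called lower. For 8 pluripotency markers they were 552 and 607 without the drug and 352 and 396 with it, and 2 of the 4 tested were called lower. Among them LIN28A had 129, 200, 99 and 121 reads and SALL4 82, 99, 16 and 19, while POU5F1 and NANOG had 0 to 2 reads in each library. For 6 fibroblast and mesodermal markers the levels were 91.5 and 96.5 against 18.3 and 6.22, with DCN at 0 in all libraries. The 8 glial markers stayed between 47.7 and 67.2, with AQP4 at 0 in all libraries. In such bulk libraries fewer cells of a type and less RNA per cell cannot be told apart. The part of these shifts in the azacytidine results below was not tested.

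Cells respond to amino-acid shortage, unfolded protein in the endoplasmic reticulum and other stresses by phosphorylating the translation factor eIF2, through kinases that include PERK (EIF2AK3) and GCN2 (EIF2AK4). General translation then falls while ATF4 is translated more, and ATF4 raises genes of amino-acid uptake, amino-acid synthesis and one-carbon metabolism. The endoplasmic reticulum has a pair of further sensors. ATF6 is cut into a transcription factor that raises chaperones, and IRE1 (ERN1) removes a short intron from XBP1 mRNA so that the active XBP1 factor can be made. In neurons PERK signalling is best known from models of neurodegeneration.

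The first question was which arms differ between libraries with and without azacytidine. A gene was called when a two-sided exact binomial test of its reads, given the library sizes, had an adjusted p under 0.05 and an absolute log2 ratio of at least 1, in the same direction, in both of a pair of comparisons that share no library. These comparisons were azacytidine against control (the pair without the knockdown) and both treatments against knockdown (the pair with the knockdown). The test compares the reads of libraries, not conditions. Of the 46 genes, 40 had a mean of at least 5 reads and were tested.

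Azacytidine went with higher levels in the amino-acid arm. In that arm 8 of the 21 tested genes rose, namely ATF5, TRIB3, DDIT4, STC2, SHMT2, MTHFD2, SLC7A5 and SLC3A2. In the ATF6 arm 1 of 8 tested genes rose, HERPUD1, and in the XBP1 arm 0 of 5 and among sensors and phosphatases 0 of 6 were called. The rule called 2.56% of all 13789 genes tested as higher and 6.19% as lower, and none of the 40 members was called lower. At an unadjusted p under 0.05 in both pairs, 12 members were higher and 1, HSP90B1, was lower. The share of all genes at that threshold was not counted. An additive model over the 4 libraries in edgeR, which has 1 residual degree of freedom, called 10 members higher, the same 9 and SYVN1, and 1 lower, HSP90B1, against 2.52% and 6.66% of all genes. Other kinds of read gave fewer calls. Reads that fit a single transcript left 1 member called higher, ATF5, full-length reads left 0, summed transcript estimates left 5, and an additive model in DESeq2 called 2, ATF5 and HERPUD1. Libraries held only 165033 to 241912 single-transcript reads and 90107 to 113397 full-length reads, and 35 and 32 members were tested in them. The shares of all genes called under these settings were not counted, so part of the loss may come from depth, which was not tested.

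The median log2 ratio of the 21 tested genes of the amino-acid arm was 1.15 without the knockdown and 1.41 with it, and 19 of them were above 0 in both pairs. It was 0.24 and -0.05 over 8 genes of the ATF6 arm, 0.40 and 0.03 over 5 of the XBP1 arm and -0.06 and -0.01 over 6 sensors and phosphatases, while all genes tested had medians of 0.02 and -0.02. Of all genes tested, 35.0% were above 0 in both pairs. The arms were not tested against each other. Medians of the last 3 groups lie close to 0 and changed sign under some other settings, which are given in the closing part.

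**Figure D1:**
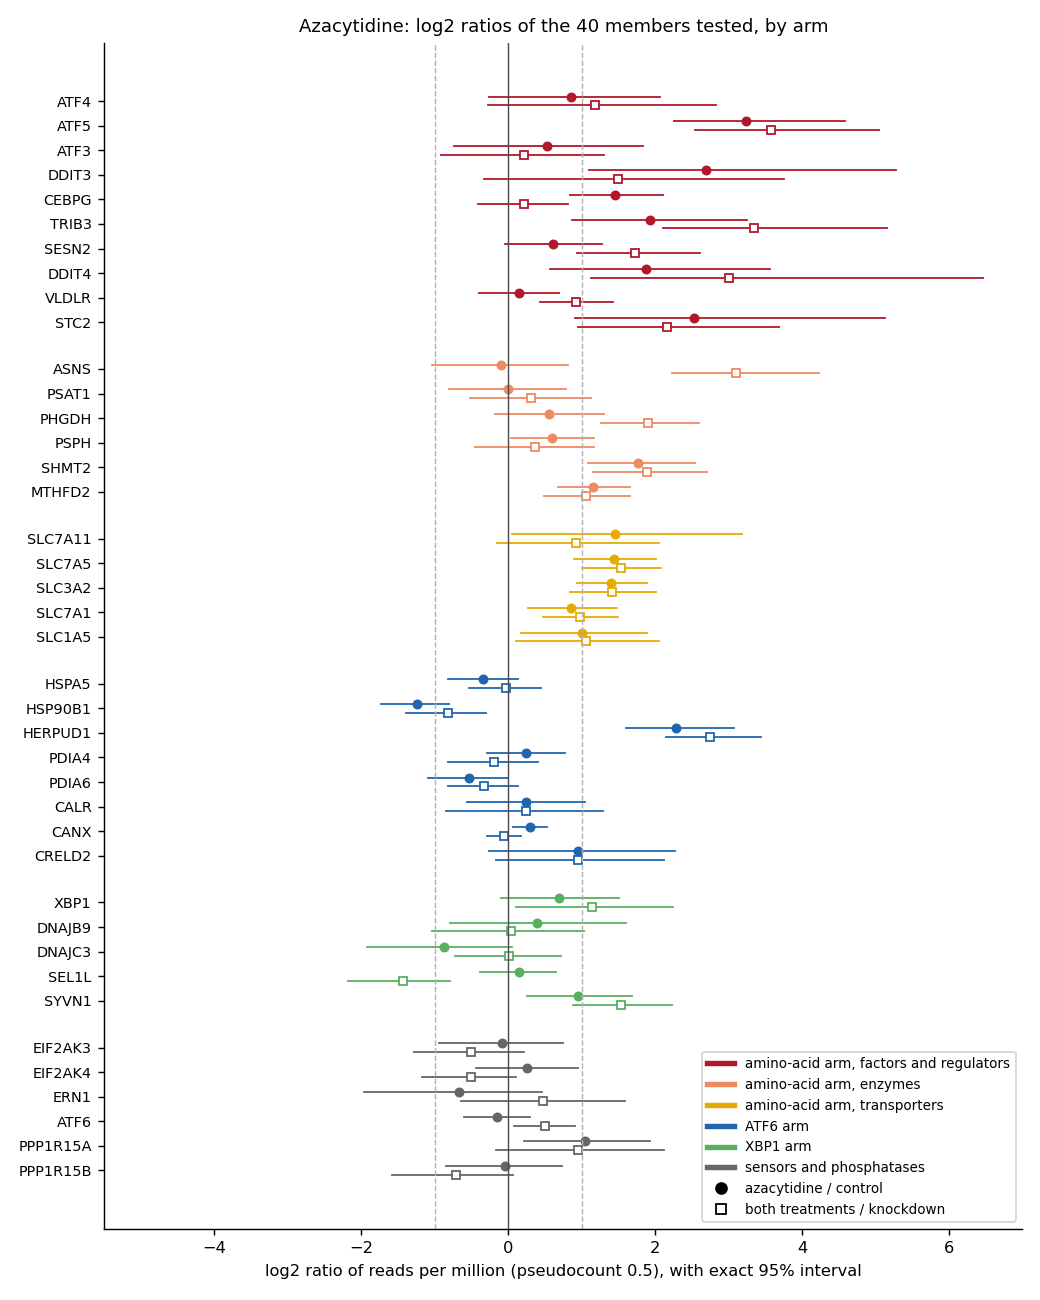
Log2 ratio (horizontal axis) of each of the 40 tested members (rows, coloured by arm) for azacytidine against control (filled circles) and for both treatments against knockdown (open squares), with exact 95% intervals of the read ratio. Dashed lines mark a log2 ratio of 1 in either direction. The genes of the amino-acid arm lie mostly right of 0, whereas in the ATF6 arm HERPUD1 alone lies beyond 1 in both pairs.

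The pairs also made calls of their own. Azacytidine against control called 12 members higher, where 6.07% of all genes were called, and 1 lower, HSP90B1, against 10.4%. Both treatments against knockdown called 13 higher, against 10.1% of all genes, and 1 lower, SEL1L, against 15.2%. In the amino-acid arm DDIT3 and CEBPG were called only in the pair without the knockdown, and ASNS, PHGDH and SESN2 only in the pair with it. Of these 5, the difference between the pairs itself passed its test for ASNS alone.

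Among the factors of the amino-acid arm, ATF5 had the largest ratio in the gene table in each pair. ATF5 (ENSG00000169136.13, chromosome 19, 49928702 to 49933935, hg38) encodes a transcription factor whose translation, like that of ATF4, rises under stress. It had 8 reads in control neurons, 7 after knockdown, 65 after azacytidine and 60 after both, or 13.3, 9.79, 132 and 125 CPM. The drug libraries were high and the groups with and without the drug did not overlap. The log2 ratio was 3.24 (95% interval 2.25 to 4.59, adjusted exact binomial p = 4.85e-13) without the knockdown and 3.58 (2.54 to 5.04, adjusted exact binomial p = 3.39e-15) with it. The edgeR additive model gave 3.46 with an adjusted p of 0.00159. Full-length reads of ATF5 numbered 5, 4, 9 and 9, and in them the ratios were 0.69 and 1.21 and the call was lost (adjusted exact binomial p = 1 and 0.722). Transcript ENST00000423777.7 had 4 of 8, 4 of 6, 48 of 53 and 36 of 44 reads, while ENST00000596658.1 had 3, 2, 3 and 5 reads.

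ATF4, the central factor of the arm, had few reads. It had 12 reads in control neurons, 7 after knockdown, 18 after azacytidine and 11 after both. These gave log2 ratios of 0.86 (95% interval -0.26 to 2.06) and 1.19 (-0.28 to 2.83), and neither passed the test. ATF4 is controlled mainly at translation, which these libraries do not measure. ATF3, another stress-induced factor, had 11, 18, 13 and 14 reads and ratios of 0.52 and 0.22, also short of a call.

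DDIT3 encodes CHOP, a factor linked to cell death under prolonged stress. It had 3 reads in control neurons, 4 after knockdown, 18 after azacytidine and 8 after both. Its ratio was 2.69 (adjusted exact binomial p = 0.00219) without the knockdown and 1.49 (adjusted exact binomial p = 0.169) with it. CEBPG, which forms dimers with ATF4, had 32, 54, 72 and 42 reads, and its ratios were 1.45 (adjusted exact binomial p = 1.96e-05) and 0.21 (adjusted exact binomial p = 0.689). The difference between these CEBPG ratios missed the threshold (adjusted conditional exact p = 0.0594). CEBPB, with 1, 3, 11 and 2 reads, was too low to test.

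TRIB3, a pseudokinase that ATF4 and CHOP induce, rose in both pairs. TRIB3 (ENSG00000101255.13, chromosome 20, 362835 to 397559) had 9 reads in control neurons, 5 after knockdown, 29 after azacytidine and 37 after both. Each drug library was above both libraries without the drug. The log2 ratio was 1.93 (95% interval 0.86 to 3.25, adjusted exact binomial p = 0.00135) and 3.34 (2.11 to 5.16, adjusted exact binomial p = 4.45e-09). Reads of TRIB3 assigned to a transcript numbered 9, 5, 21 and 18, and full-length reads 5, 5, 13 and 12. In both kinds the drug libraries had more reads, but the call was lost.

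DDIT4 and STC2 rose from very low levels. DDIT4 (ENSG00000168209.6, chromosome 10, 72273919 to 72276036), an inhibitor of mTORC1 signalling, had 6 and 2 reads without the drug and 19 and 13 with it. Its ratios of 1.88 (95% interval 0.57 to 3.57) and 3.00 (1.13 to 6.46) have wide intervals. STC2 (ENSG00000113739.11, chromosome 5, 173314723 to 173328447), a secreted glycoprotein, had 3, 7, 16 and 22 reads, and its ratios were 2.53 (0.90 to 5.13) and 2.16 (0.94 to 3.69). For both genes the libraries with the drug were above those without it.

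The remaining regulators were not called in both pairs. SESN2, a sestrin that restrains mTORC1 when leucine is short, had 37, 19, 46 and 43 reads. Its ratio was 0.60 without the knockdown and 1.73 (adjusted exact binomial p = 5.47e-05) with it, and the knockdown library was the low one. VLDLR, a lipoprotein receptor that also binds reelin, had 63, 64, 57 and 82 reads with ratios of 0.15 and 0.92. CHAC1, an enzyme that degrades glutathione, had 3, 2, 6 and 3 reads and was not tested. VEGFA had 0, 0, 2 and 2 reads. NUPR1 had 0 reads in every library, which allows a level of up to 4.20 to 6.22 CPM.

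**Figure D2:**
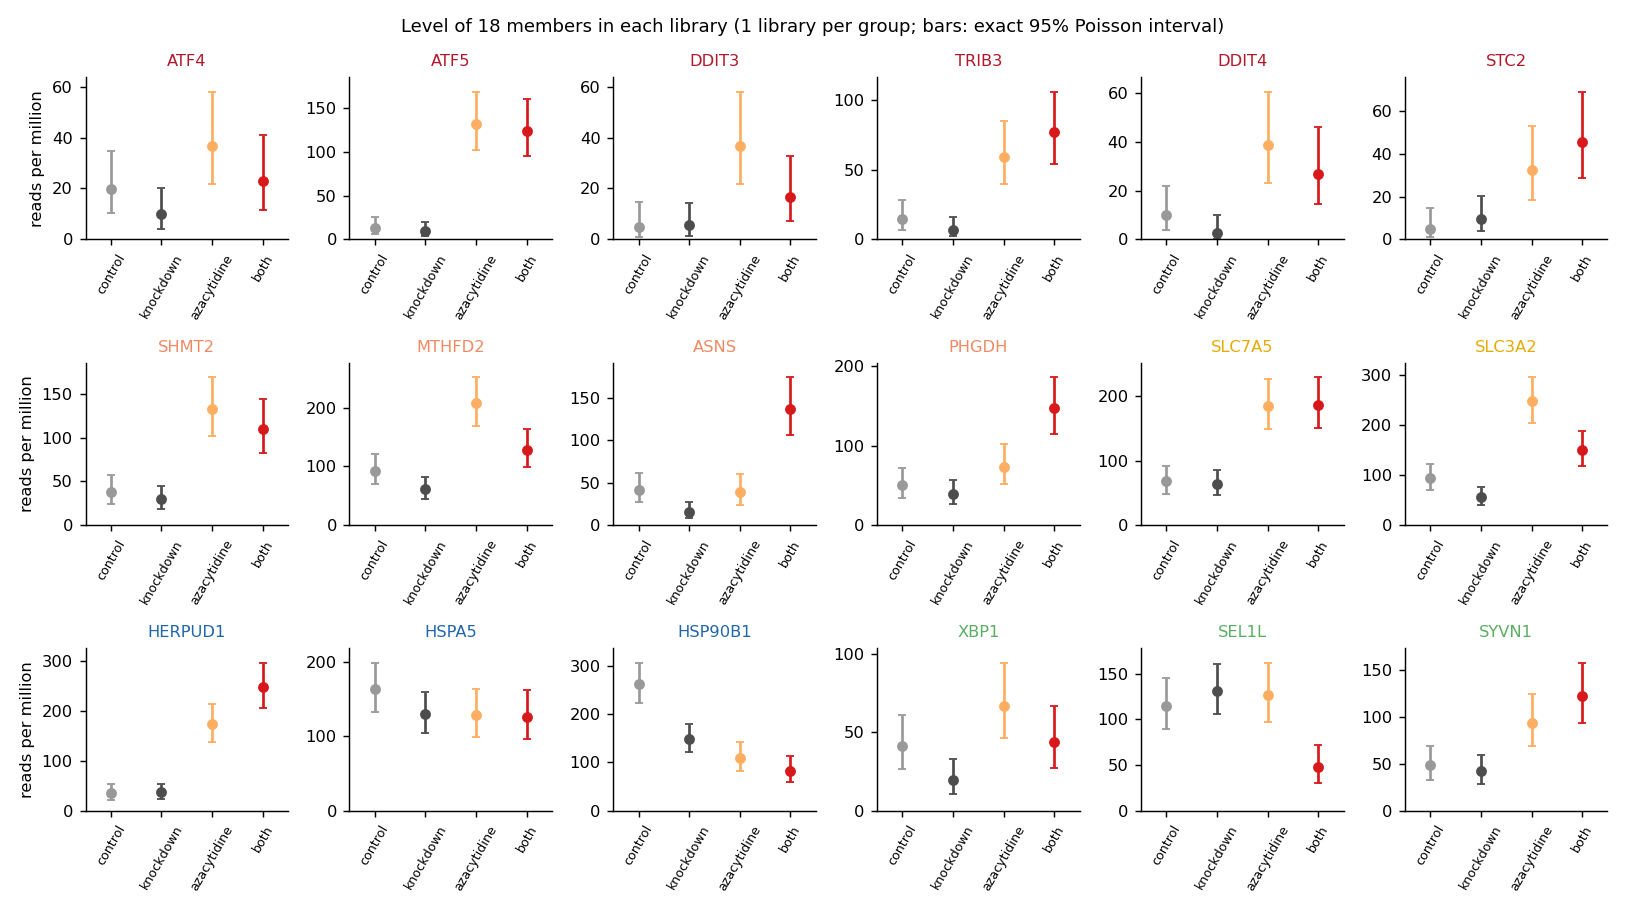
Level in CPM (vertical axis, from 0, a separate scale for each gene) of 18 members in the 4 libraries, with exact 95% Poisson intervals of the read count, which cover counting error only. ATF5, TRIB3, SHMT2, SLC7A5 and HERPUD1 were high in both drug libraries, while HSPA5 stayed between 127 and 163 CPM and ASNS was high with both treatments only.

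Of the 6 enzymes of the arm 2 rose, and both act in mitochondrial one-carbon metabolism. SHMT2 (ENSG00000182199.11, chromosome 12, 57229573 to 57234935), which makes glycine from serine, had 23 reads in control neurons, 21 after knockdown, 65 after azacytidine and 53 after both. Its log2 ratios were 1.77 (95% interval 1.09 to 2.54, adjusted exact binomial p = 2.04e-06) and 1.89 (1.15 to 2.71, adjusted exact binomial p = 1.02e-06). MTHFD2 (ENSG00000065911.13, chromosome 2, 74186172 to 74217565), which acts next to it in mitochondrial folate metabolism, had 56, 44, 102 and 62 reads. In CPM these were 93.1, 61.5, 208 and 129, so the drug libraries were the higher member of each pair. The MTHFD2 ratios of 1.15 (0.67 to 1.66) and 1.06 (0.48 to 1.66) were just above the size a call requires. With scaling factors taken over all genes the second was 0.99 and the call was lost. In full-length reads, which numbered 24, 12, 22 and 16, the ratio without the knockdown turned to -0.22.

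The serine synthesis enzymes were not called in both pairs. PHGDH, which takes the first step from glycolysis to serine, had 30, 28, 36 and 71 reads and ratios of 0.55 and 1.90. PSAT1, the second step, had 32, 30, 26 and 25 reads and ratios of 0.00 and 0.31. PSPH, the last step, had 50, 30, 62 and 26 reads and ratios of 0.60 and 0.37. PHGDH was high in the library with both treatments, while PSPH was low in both knockdown libraries. Reads of PHGDH assigned to a transcript numbered 21, 17, 24 and 32, and full-length reads 8, 6, 10 and 10, so its excess was smaller in these.

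ASNS, asparagine synthetase, is a classic target of ATF4 and was not called in both pairs. ASNS (ENSG00000070669.17, chromosome 7, 97851677 to 97872542) had 25 reads in control neurons, 11 after knockdown, 19 after azacytidine and 66 after both. Only the library with both treatments was high, at 137 CPM against 15.4 to 41.6 in the others. The ratio with azacytidine was -0.09 (95% interval -1.05 to 0.82) without the knockdown and 3.10 (2.22 to 4.22) with it. The difference of 3.20 between these ratios passed a conditional exact test of the 4 counts (adjusted p = 1.62e-05). That test called 2.16% of all genes with a larger ratio in the presence of the knockdown and 3.47% with a smaller one, and among the members it called ASNS in the first direction and SEL1L in the second. The ASNS difference rests on 1 library a group. The low knockdown library, with a log2 ratio of -1.40 against control, adds to it. Against azacytidine, the library with both treatments had a ratio of 1.80. Full-length reads of ASNS numbered 9, 2, 8 and 8.

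Of the 5 amino-acid transporters, the 2 chains of the large neutral amino-acid transporter LAT1 rose. SLC7A5 (ENSG00000103257.10, chromosome 16, 87830016 to 87869507), the light chain that carries the substrate, had 41 reads in control neurons, 46 after knockdown, 91 after azacytidine and 90 after both. Its ratios were 1.43 (95% interval 0.90 to 2.01, adjusted exact binomial p = 1.14e-06) and 1.53 (1.01 to 2.08, adjusted exact binomial p = 2.77e-08). SLC3A2 (ENSG00000168003.19, chromosome 11, 62856004 to 62888880), the heavy chain CD98 with which it pairs, had 56, 40, 121 and 72 reads. Its ratios were 1.40 (0.94 to 1.89) and 1.41 (0.84 to 2.01). In reads assigned to a single transcript, SLC3A2 had 26, 12, 18 and 26 reads and its ratio without the knockdown turned to -0.44.

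The other transporters lay near the size limit. SLC7A1, a carrier of arginine and lysine, had 41, 58, 61 and 77 reads, and its ratios of 0.86 and 0.98 passed the adjusted test in both pairs (adjusted exact binomial p = 0.0176 and 0.000659) but not the size of 1. SLC1A5, a glutamine carrier, had 20, 17, 33 and 24 reads, with ratios of 1.00 and 1.06 that did not pass the test. SLC7A11, the cystine carrier, had 6, 14, 14 and 18 reads, with ratios of 1.45 and 0.92 that did not pass it either. All 5 transporters had ratios of at least 0.86 without the knockdown and 0.92 with it.

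HERPUD1 was the exception in the ATF6 arm. HERPUD1 (ENSG00000051108.15, chromosome 16, 56932142 to 56944864) encodes a membrane protein of the endoplasmic reticulum that takes part in degradation of unfolded proteins. It had 21 reads in control neurons, 26 after knockdown, 85 after azacytidine and 119 after both, or 34.9, 36.4, 173 and 247 CPM. The drug libraries were high and did not overlap the others. The log2 ratio was 2.28 (95% interval 1.61 to 3.07, adjusted exact binomial p = 1.82e-11) and 2.74 (2.14 to 3.44, adjusted exact binomial p = 1.50e-22), and the edgeR additive model gave 2.54 with an adjusted p of 0.00203. The difference was not seen in every kind of read. Reads that fit a single transcript numbered 11, 9, 10 and 13, with ratios of -0.05 and 0.94, while full-length reads numbered 11, 6, 28 and 37.

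Because HERPUD1 is known to answer to several arms, promoters were searched for 4 motifs on both strands. The sequences are those of RefSeq on GRCh38.p14, from 250 bases before to 50 bases after each annotated start, and 41 of the 46 members matched. The motifs were the C/EBP-ATF composite core TTGCATCA, to which ATF4 binds with a C/EBP partner, the endoplasmic reticulum stress element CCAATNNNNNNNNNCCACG, the second such element ATTGGNCCACG, and TGACGTGG, the core of the unfolded protein response element. No member promoter held overlapping matches of different motifs, although both stress elements end in CCACG. In the table of 27305 genes, 1.08% held the composite core, 0.0916% the first stress element, 0.0696% the second and 0.927% TGACGTGG. Among the 41 members, 5 held the composite core, 7 the first stress element, 2 the second and 0 TGACGTGG. The elements were first described in promoters of this kind, so these shares are no independent evidence, and a match is a description of letters, not a bound site.

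HERPUD1 was the one member with both a composite core and a stress element of either kind. Its promoter is shown with both matches in capitals, first the composite core, separated by 168 bases from the start site, and then the second stress element, separated by 106 bases from it (chr16:56931892-56932191, plus strand).
HERPUD1: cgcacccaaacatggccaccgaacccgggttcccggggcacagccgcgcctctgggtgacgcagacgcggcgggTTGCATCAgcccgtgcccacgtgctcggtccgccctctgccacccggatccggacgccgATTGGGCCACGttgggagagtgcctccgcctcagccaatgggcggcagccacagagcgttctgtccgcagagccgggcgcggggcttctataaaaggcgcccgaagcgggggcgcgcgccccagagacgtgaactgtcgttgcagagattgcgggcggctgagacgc

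The composite core was also found in the promoters of CEBPG, CHAC1, SLC1A5 and PPP1R15B. The matches are printed in capitals with 15 bases on each side, 5′ to 3′ on the strand of the gene, so that the surroundings of each match can be seen (chr19:33374056-33374093, chr15:40953247-40953284, chr19:46784889-46784926 and chr1:204412022-204412059). In CEBPG, SLC1A5 and PPP1R15B the core lies on the other strand and reads TGATGCAA, so the flanks of CHAC1 stand in the opposite order.
CEBPG: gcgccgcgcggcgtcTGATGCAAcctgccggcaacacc
CHAC1: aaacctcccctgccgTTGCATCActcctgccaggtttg
SLC1A5: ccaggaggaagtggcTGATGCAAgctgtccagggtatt
PPP1R15B: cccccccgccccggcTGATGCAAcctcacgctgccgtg

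Of the 5 members with the composite core, 4 were tested and 1, HERPUD1, was called. The ratios of the 4 ran from -0.05 to 2.28 without the knockdown and from -0.71 to 2.74 with it. The promoters of ATF5, TRIB3, DDIT4, STC2, MTHFD2, SLC7A5 and SLC3A2 did not hold these letters in this window, and SHMT2 was not matched in the table.

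No chaperone of the ATF6 arm was called higher. HSPA5 encodes BiP, the main chaperone of the endoplasmic reticulum and the usual readout of ATF6. It had 98 reads in control neurons, 93 after knockdown, 63 after azacytidine and 61 after both. Its log2 ratio was -0.34 (95% interval -0.82 to 0.13) and -0.03 (-0.53 to 0.44). A rise of 1 between these libraries lies outside both intervals, which cover counting error only and not the spread between replicates. Its promoter holds the first stress element, in capitals, with 47 bases between it and the start site (chr9:125241294-125241593, minus strand).
HSPA5: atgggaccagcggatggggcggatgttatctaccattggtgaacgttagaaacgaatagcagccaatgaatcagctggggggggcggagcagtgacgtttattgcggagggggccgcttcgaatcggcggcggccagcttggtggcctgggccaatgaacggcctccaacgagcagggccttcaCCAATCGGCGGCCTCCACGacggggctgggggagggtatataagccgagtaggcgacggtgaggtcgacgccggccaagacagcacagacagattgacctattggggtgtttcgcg

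HSP90B1, or GRP94, a chaperone of the same compartment, was lower with azacytidine. It had 158 reads in control neurons, 106 after knockdown, 54 after azacytidine and 40 after both, or 263, 148, 110 and 83.0 CPM. In these gene reads every treated library was below the control. Its ratio was -1.25 (adjusted exact binomial p = 2.70e-07) without the knockdown and -0.83 (adjusted exact binomial p = 0.00599) with it, so the size of 1 was reached in the first pair only. The edgeR additive model gave -1.05 with an adjusted p of 0.0473. Other kinds of read did not all show this order. Reads of HSP90B1 that fit a single transcript numbered 16, 43, 10 and 16, so the knockdown library was above the control. Reads assigned to any transcript numbered 99, 89, 53 and 37, and full-length reads 26, 12, 13 and 4.

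The protein disulfide isomerases and lectin chaperones showed no call. PDIA4 had 63, 63, 61 and 37 reads and ratios of 0.25 and -0.19, and PDIA6 had 82, 109, 46 and 58 reads and ratios of -0.53 and -0.33. CALR, or calreticulin, had 29, 19, 28 and 15 reads with ratios of 0.24 in each pair. CANX, or calnexin, was the most deeply read member with 316, 407, 316 and 263 reads. Its ratios were 0.29 (95% interval 0.06 to 0.52) and -0.06 (-0.29 to 0.17). A change of 1 between these libraries lies outside both intervals, which cover counting error only. CRELD2, a secreted stress protein, had 10, 13, 16 and 17 reads and ratios of 0.94 in both pairs that did not pass the test. SDF2L1 had 0 to 3 reads and MANF 1 to 8 reads in each library, and neither was tested.

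The 7 members with the first stress element, all tested, were HSPA5, HSP90B1, PDIA6, CALR, CANX, CRELD2 and XBP1. None of them was called in both pairs, and their ratios ran from -1.25 to 0.94 without the knockdown and from -0.83 to 1.14 with it. The matches of 4 of them are printed with 8 bases on each side, on the strand of the gene, where the fixed ends can be compared across the variable spacer (chr2:10812845-10812879, chr22:28800595-28800629, chr19:12938376-12938410 and chr22:49918546-49918580). In CALR and CRELD2 the element lies on the other strand and reads in reverse.
PDIA6: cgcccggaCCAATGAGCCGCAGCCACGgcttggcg
XBP1: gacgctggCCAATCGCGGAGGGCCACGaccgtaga
CALR: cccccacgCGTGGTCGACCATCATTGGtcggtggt
CRELD2: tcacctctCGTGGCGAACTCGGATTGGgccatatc

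**Figure D3:**
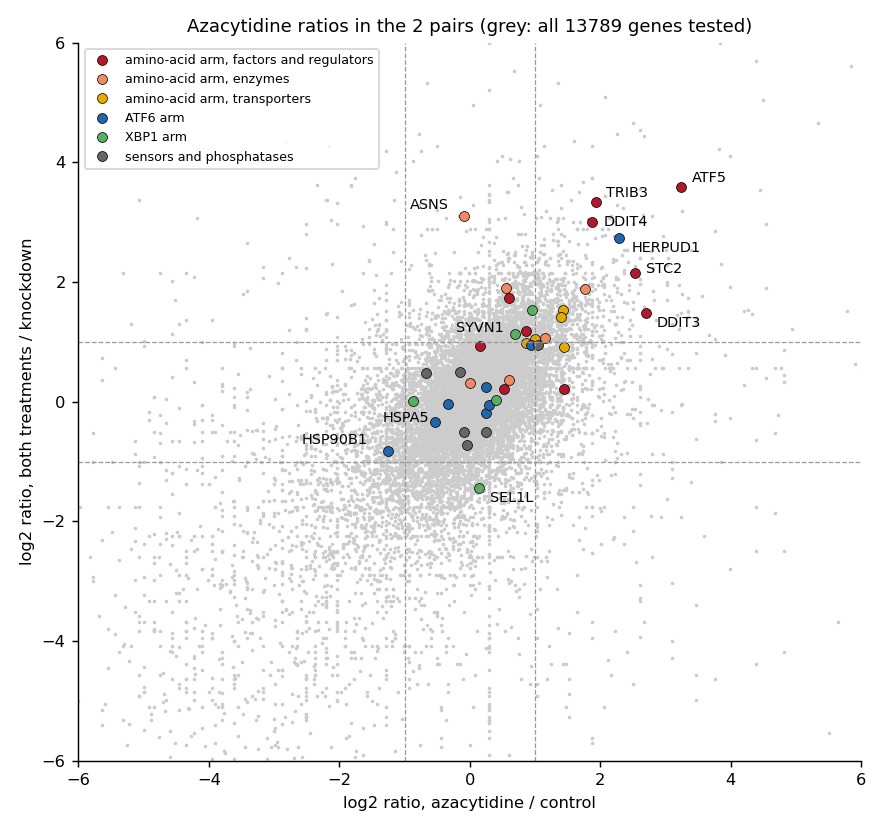
Log2 ratio for azacytidine against control (horizontal axis) and for both treatments against knockdown (vertical axis) of all 13789 genes tested (grey) and of the 40 tested members (coloured by arm), with dashed lines at a log2 ratio of 1 in either direction. ATF5, TRIB3, DDIT4, STC2 and HERPUD1 lie in the upper right, ASNS is high on the vertical axis only and SEL1L is low on it, and 67 genes lie outside the axis limit of 6.

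In the XBP1 arm no gene was called in both pairs. XBP1 itself had 25 reads in control neurons, 14 after knockdown, 33 after azacytidine and 21 after both. Its ratios were 0.69 (95% interval -0.10 to 1.50) and 1.14 (0.11 to 2.24), and neither passed the adjusted test (adjusted exact binomial p = 0.226 and 0.0649). SYVN1, or HRD1, the ubiquitin ligase of protein degradation at the endoplasmic reticulum, had 29, 30, 46 and 59 reads. Its ratios were 0.95 (adjusted exact binomial p = 0.0281) and 1.53 (adjusted exact binomial p = 1.28e-05), so it missed the size of 1 in the first pair. The co-chaperones DNAJB9 and DNAJC3 had 13, 22, 14 and 15 reads and 32, 43, 14 and 29 reads, with no call.

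SEL1L, the adaptor that holds HRD1 in its complex, was low in 1 library. It had 69 reads in control neurons, 94 after knockdown, 62 after azacytidine and 23 after both. In CPM these were 115, 131, 126 and 47.7. Its ratio with azacytidine was 0.14 (95% interval -0.38 to 0.65) without the knockdown and -1.44 (-2.19 to -0.79) with it, and the difference of -1.58 passed the conditional exact test (adjusted p = 0.00377). SEL1L and SYVN1 act in 1 complex, and in both treatments against knockdown SEL1L was called lower and SYVN1 higher. Of the SYVN1 reads, only 14, 14, 19 and 18 were assigned to a transcript, and 1, 2, 3 and 2 were full-length. In full-length reads SEL1L had 13, 9, 19 and 10 reads, and the ratio with the knockdown turned to 0.28.

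Iso-Seq reads can show whether XBP1 mRNA has lost the short intron that IRE1 removes. The deposited annotation holds an XBP1 transcript without these 26 bases (ENST00000344347.6), which lie at chr22:28796128-28796153 on the minus strand in the coding region. The stretch is printed with the bases of the annotated intron in capitals, followed by the sequence after their removal. In GENCODE 29, 2 of 2 annotated spliced forms hold the same joined sequence. The base G stands at the start of the capitals and again just after them, so an intron placed slightly later leaves the same joined sequence. The capitals show the annotated placement, and the exact cut sites of IRE1 were not tested.
Unspliced: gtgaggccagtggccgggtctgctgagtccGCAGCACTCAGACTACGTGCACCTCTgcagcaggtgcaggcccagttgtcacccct
Spliced: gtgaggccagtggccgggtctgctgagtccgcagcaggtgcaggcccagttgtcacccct

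No read was assigned to the spliced form in any library. XBP1 had 23 reads assigned to a transcript in control neurons, 14 after knockdown, 29 after azacytidine and 21 after both, of which 19, 8, 22 and 15 were assigned to the unspliced form ENST00000216037.10. An unannotated form, BambuTx3715, had 3, 4, 3 and 5 reads, and all 4 forms with reads contain the short intron within an exon. A count of 0 allows a share of spliced reads of up to 13.0%, 21.4%, 10.3% and 14.3%. These limits cover counting error only. An aligner can write so short a gap as a deletion in place of an intron, and how such reads were assigned was not tested.

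None of the sensors and phosphatase subunits was called in both pairs. The eIF2 kinases EIF2AK3 and EIF2AK4 had 30, 51, 23 and 24 reads and 38, 68, 37 and 32 reads, with azacytidine ratios between -0.51 and 0.25. ERN1 had 20, 16, 10 and 15 reads and ATF6 101, 103, 74 and 98 reads, with ratios between -0.67 and 0.50. PPP1R15A, or GADD34, the stress-induced subunit that directs a phosphatase to eIF2, had 20, 13, 34 and 17 reads. Its ratio was 1.04 (adjusted exact binomial p = 0.044) without the knockdown and 0.94 (adjusted exact binomial p = 0.191) with it, so it was called in the first pair only. PPP1R15B, its constitutive counterpart, had 33, 47, 26 and 19 reads and ratios of -0.05 and -0.71.

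Summed levels were also compared by arm. The 25 genes of the amino-acid arm held 944 CPM in control neurons, 742 after knockdown, 2041 after azacytidine and 1915 after both. The 10 genes of the ATF6 arm held 1309, 1174, 1375 and 1270, the 5 of the XBP1 arm 279, 284, 344 and 305 and the 6 sensors and phosphatases 402, 417, 416 and 425. In the amino-acid arm both drug libraries lay far above the others, and HERPUD1 gave 173 and 247 of the ATF6 sums with the drug.

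**Figure D4:**
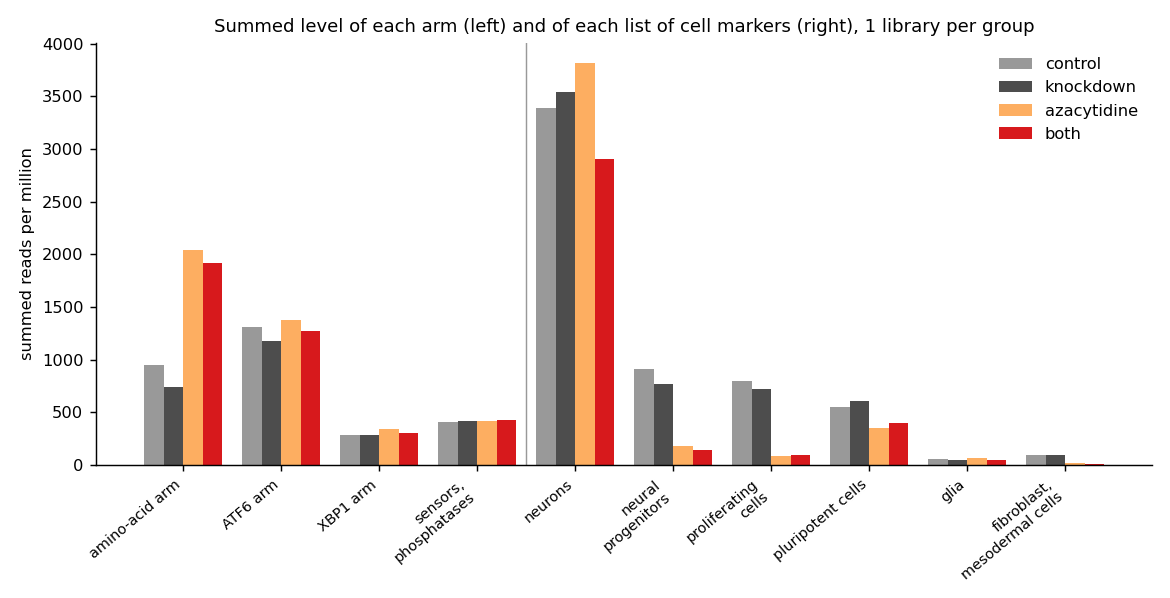
Summed CPM (vertical axis, from 0) of the genes of each arm (left of the line) and of each list of cell markers (right of the line) in the 4 libraries. The amino-acid arm rises from 944 and 742 to 2041 and 1915 CPM with azacytidine, while markers of neural progenitors and proliferating cells fall and neuronal markers stay between 2909 and 3819.

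Further genes of these pathways were counted in the same way. Of 20 other genes of the amino-acid arm, 16 were tested and 2 were called higher in both pairs. These were PCK2, the mitochondrial enzyme that makes phosphoenolpyruvate, with 9, 11, 21 and 27 reads, and ADM2, a peptide hormone, with 1, 0, 17 and 21 reads. None of the 16 was called lower in both pairs, where the rule called 2.56% of all genes as higher and 6.19% as lower. Single pairs went both ways. Azacytidine against control called 3 of the 16 higher and 0 lower, against 6.07% and 10.4% of all genes. Both treatments against knockdown called 3 higher and 3 lower (ALDH18A1, XPOT and KLHL24), against 10.1% and 15.2% of all genes. The median ratio of the 16 was 0.45 in each pair. Of 32 other genes of the endoplasmic reticulum, 31 were tested and 1 was called higher, CREB3, a membrane-bound transcription factor with 14, 19, 27 and 27 reads. Called lower were DERL3, a Derlin of the degradation pathway, with 16, 17, 0 and 0 reads, and CREB3L2, a relative of CREB3, with 32, 43, 7 and 11 reads. For the genes of the endoplasmic reticulum, the counts of 1 and 2 among 31 are near the 2.56% and 6.19% of all genes. The median ratio of the 31 was -0.05 and 0.03.

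The second question was whether the TDP-43 knockdown alters these genes. The comparisons were knockdown against control and both treatments against azacytidine. No member was called in both, where the rule called 0.392% of all genes as higher and 0.363% as lower. The median log2 ratio was -0.38 for knockdown against control and -0.07 for both treatments against azacytidine over the 21 genes of the amino-acid arm, with 15 and 12 of them below 0. Within that arm the 6 enzymes had medians of -0.49, with 6 of 6 below 0, and -0.15, with 4 of 6 below 0. The 10 factors had -0.33 and -0.08 and the 5 transporters -0.09 and 0.01. Of all genes tested, 51.86% and 51.15% were above 0 in these comparisons. All ratios of a comparison come from the same pair of libraries, so they are not independent of each other. The medians were -0.10 and -0.13 in the ATF6 arm, 0.17 and 0.12 in the XBP1 arm and 0.02 and -0.05 among sensors and phosphatases, against 0.03 and 0.03 over all genes. At an unadjusted exact binomial p under 0.05 in both, 0 members were higher and 3 were lower, PSPH, MTHFD2 and SLC3A2. The edgeR additive model called 0 members in either direction, against 0.058% and 0.029% of all genes, and an unadjusted p under 0.05 was reached by 0 members as higher and 4 as lower. DESeq2 called 0, with 28 of the 40 adjusted p-values missing. The shares of all genes at an unadjusted p under 0.05 were not counted.

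Single pairs made few calls. Knockdown against control called 0 members higher and 1 lower, SESN2, against 4.71% and 3.11% of all genes. At an unadjusted exact binomial p under 0.05 this pair had 0 members higher and 8 lower, and the other had 5 higher and 7 lower. The shares of all genes at that threshold were not counted, so these numbers show nothing particular to the members. Both treatments against azacytidine called 1 higher, ASNS, and 2 lower, PSPH and SEL1L, against 3.7% and 3.27%. PSPH came closest to a call in both, with 83.1 CPM in control neurons, 41.9 after knockdown, 126 after azacytidine and 53.9 after both. Its ratios were -0.98 (adjusted exact binomial p = 0.0302) and -1.21 (adjusted exact binomial p = 0.00368).

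**Figure D5:**
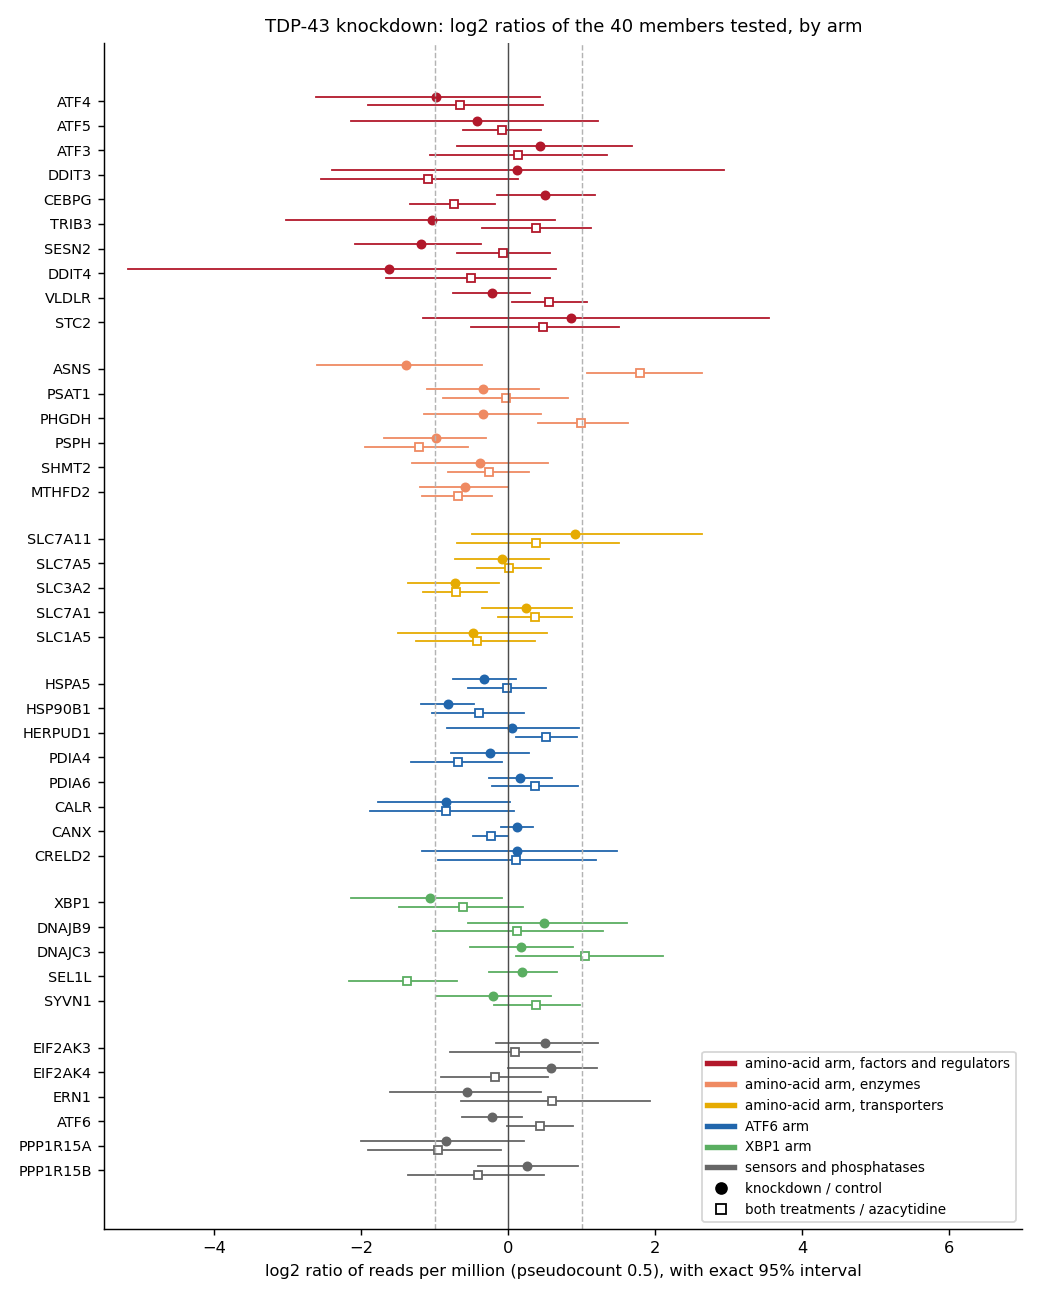
Log2 ratio (horizontal axis) of each of the 40 tested members (rows, coloured by arm) for knockdown against control (filled circles) and for both treatments against azacytidine (open squares), with exact 95% intervals of the read ratio and dashed lines at 1 in either direction. No member lies beyond 1 in the same direction in both pairs, PSPH lies near -1 in both, and ASNS lies on opposite sides of 0.

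The estimated transcript counts also allow the transcripts of a gene to be compared. Each transcript's share of the estimated reads of its gene was compared between libraries with Fisher's exact test (two-sided), over 15192 transcripts, of which 53 belonged to 21 members. With azacytidine 1 of the 53 was called and with the knockdown 4, against 1.15% and 0.724% of all transcripts tested in either direction. In CANX these were 1 and 2 transcripts, each of 15 exons. The one called with azacytidine, as lower, was ENST00000247461.9, with 102 of 267, 67 of 311, 18 of 234 and 0 of 172 estimated reads. Its full-length reads numbered 37, 21, 0 and 0. Its single-transcript reads numbered 12, 8, 10 and 0, so they hardly differed between control and azacytidine. The 2 called with the knockdown, ENST00000680894.1 and ENST00000681504.1, had 0 reads in every library that fit them alone, so their estimates are uncertain.

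In ATF6 the other 2 transcripts moved with the knockdown. The main form, ENST00000367942.4, had 53 of 57 reads in control neurons, 40 of 59 after knockdown, 58 of 65 after azacytidine and 28 of 48 after both. Its share was lower with the knockdown (adjusted Fisher's exact p = 0.0163 and 0.00883). A second annotated form, ENST00000679853.1, had 0 of 57, 14 of 59, 2 of 65 and 14 of 48, or 23.7% (95% Wilson interval 14.7% to 36.0%) with the knockdown and 29.2% (18.2% to 43.2%) with both. The 0 of the control library allows a share of up to 5.26%. Its share was higher by 23.7 and 26.1 percentage points in the knockdown libraries (adjusted Fisher's exact p = 0.00166 and 0.00599). In reads that fit a single transcript the second form had 0 of 27, 11 of 44, 0 of 25 and 12 of 40, and the call was lost (adjusted Fisher's exact p = 0.219 and 0.190). The forms differ in their ends and in 1 exon on chromosome 1 that ends at 161863312 and starts at 161863198 in the main form and 3 bases later, at 161863201, in the second. No full-length read was assigned to the second form in any library, and the main form had 16, 0, 21 and 0 full-length reads, so it lacked them in both knockdown libraries.

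An unannotated SLC7A1 transcript had reads in the drug libraries alone. It was called with the knockdown (adjusted Fisher's exact p = 9.51e-06) and not without it (adjusted Fisher's exact p = 0.414), so not in both pairs. The annotated form, ENST00000380752.10, had 41 of 41 reads in the control library, 51 of 51 with the knockdown, 54 of 59 with azacytidine and 44 of 69 with both. The unannotated form, whose first exon lies at chr13:29595144-29595524 and overlaps the annotated first exon at chr13:29595416-29595688, took the other 5 of 59 and 25 of 69, or 8.47% (95% Wilson interval 3.67% to 18.3%) and 36.2% (25.9% to 48.0%). Without the drug it had 0 reads, which allows a share of up to 7.32% in the control library and 5.88% with the knockdown. Its full-length reads numbered 0, 0, 1 and 5.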

How the data were processed

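The estimated counts per gene, the estimated counts per transcript and the estimated full-length counts per transcript were made by the authors from reads aligned to hg38 with minimap2, per the file headers, and the deposited annotation names Bambu as the source of its transcripts. The counts of reads that fit a single transcript are also the authors', per the file headers. Versions and settings are not given in the sources used here. The deposited transcript table in CPM was not used.

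All deposited gene counts were even to within 0.00031, so they were divided by 2 and rounded to whole reads. Total reads per library were 595158, 767621, 466337 and 477622 (control, knockdown, azacytidine, both). Levels are CPM of the library size after TMM scaling (edgeR 4.0.16, R 4.3.3) over the genes that averaged 5 or more reads. Log2 ratios carry a pseudocount of 0.5 read. The two-sided exact binomial test (scipy 1.17.1) was adjusted by the Benjamini-Hochberg method over 13789 genes. The difference between ratios was tested with a conditional exact test of the 4 counts. Transcript shares were tested where the gene had a mean of at least 20 transcript reads and the transcript at least 10 reads, with a change of at least 10 percentage points in both pairs required. Quasi-likelihood (edgeR) and DESeq2 1.42.0 additive models had 1 residual degree of freedom. Scripts were tested on simulated data. Intervals and limits for a count of 0 (3 reads) cover counting error only.

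The members, the arms, the other lists and the motifs were chosen with earlier results of these data known. Named are TARDBP, all members, and those of the other pathway genes that were called. Alternatives covered the halving, the scaling, the filter, the pseudocount, the kind of read, the transcript length and the test.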

Additional observations from a re-analysis of the deposited data

Results flagged for a closer look

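For 2 members the azacytidine ratio differed between the pair with and the pair without the knockdown by a test of the difference itself. In ASNS the log2 ratio was larger by 3.20 with the knockdown (adjusted conditional exact p = 1.62e-05). In the transcript table ASNS had 13 reads in control neurons, 3 after knockdown, 10 after azacytidine and 43 after both, of which 12, 3, 5 and 13 fit a single transcript and 9, 2, 8 and 8 were full-length. The combined library was therefore high in the estimated reads and not in the full-length reads. In SEL1L the difference was -1.58 (adjusted conditional exact p = 0.00377). It had 56, 79, 55 and 18 transcript reads, of which 55, 74, 52 and 15 fit a single transcript and 13, 9, 19 and 10 were full-length. Each difference rests on 1 library a group, and its cause was not tested.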

How the results depend on the processing

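No paired analysis was possible because the labels give 1 replicate number in all, so replicates could not be used as a block, and leaving out a library would leave a group empty. The additive models hold the guide and the drug as terms. The count of 9 members higher with azacytidine became 1 with reads that fit a single transcript, 0 with full-length reads, 5 with summed transcript estimates (chosen after seeing the data) and 2 with the DESeq2 additive model, and lay between 7 and 11 under the other settings. The members lower with azacytidine became 1 with the edgeR additive model, the members lower with the knockdown became 1 with total counts (PSPH), the members whose azacytidine ratio differed with the knockdown became 6 without halving, and the transcript calls became 0 with single-transcript reads and 1 with full-length reads. For these counts the cause was not tested.

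Medians of log2 ratios moved or changed sign as follows, in the order of the comparison. For azacytidine against control, full-length reads gave 0.46 for the amino-acid arm, 0.54 for its transporters, -0.38 for the ATF6 arm and 0.47 for sensors and phosphatases. Single-transcript reads gave -0.33 for the ATF6 arm, -0.018 for the XBP1 arm and 0.028 for sensors, summed transcript estimates 0.71 for transporters and 0.090 for sensors, total counts 1.46 for transporters, and removal of the length trend 0.016 for sensors. For both treatments against knockdown, full-length reads gave 0.87 for the amino-acid arm and 0.13 for sensors, single-transcript reads -0.11 for the XBP1 arm and 0.18 for sensors, total counts 0.068 for the ATF6 arm and 0.10 for sensors, a pseudocount of 2 gave 0.015 and the length trend 0.15 for sensors, and scaling over all genes -0.038 for the XBP1 arm. For knockdown against control, scaling over all genes gave 0.019 for transporters and 0.0062 for the ATF6 arm. A mean of at least 20 reads gave -0.016, full-length reads -0.19 and the length trend -0.016 for the XBP1 arm, and total counts -0.10, single-transcript reads -0.072 and the length trend -0.11 for sensors. For both treatments against azacytidine, single-transcript reads gave 0.056 for the amino-acid arm, 0.54 for transporters and 0.051 for sensors, and full-length reads 0.033 for the amino-acid arm and 0.17 for its factors. The length trend gave 0.10 for factors, 0.015 for enzymes and -0.038 for transporters, total counts -0.050 for transporters, and a mean of at least 20 reads -0.21 for transporters and -0.12 for the XBP1 arm.

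Of single ratios, 4 reversed. MTHFD2 (azacytidine against control) was -0.22 and SEL1L (both treatments against knockdown) 0.28 in full-length reads, and SLC3A2 was -0.44 and HERPUD1 -0.049 (azacytidine against control) in single-transcript reads. Of the values of the 20 called ratios under other settings, a further 29 lost their call and 181 kept direction and call. Total counts moved the median of all genes to 0.08 and 0.09 in the azacytidine pairs.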
